A study of Mus musculus with 384 samples.

Results

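The aldehyde dehydrogenases described here are 8 genes, *Aldh1a1*, *Aldh1a7*, *Aldh1a2*, *Aldh1a3*, *Aldh2*, *Aldh3a2*, *Aldh7a1*, and *Aldh9a1*. They were taken by symbol from a table of read counts of single cells, which held 41266 gene entries with counts. Of these entries, 26749 had at least 1 read in the 384 cells of the series. The 8 genes were followed in the 209 of 384 cells with at least 500000 reads counted on genes. The cells came from 8 DAT-IRES-Cre;Ai9 mice on a C57BL6/J background, in which Cre expressed from the *Slc6a3* locus (the dopamine transporter gene) switches on the red protein tdTomato. There was no control genotype and no treatment. Mice 1, 4, and 6 are labelled female (25, 33, and 36 d old) and mice 2, 3, 5, 7, and 8 male (27, 27, 28, 24, and 24 d old). Live cells with tdTomato (propidium iodide negative) were sorted from the dissociated midbrain, with the hypothalamus included in the dissection, and each mouse was captured in a C1 run of its own, so mouse and run cannot be told apart. The sort thus took cells with a history of *Slc6a3* expression, and a tdTomato cell need not have expressed *Slc6a3* or *Th* when it was captured.

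The 8 mice gave 18, 34, 45, 12, 38, 17, 24, and 21 cells, mouse 1 first. A cell held 500672–1544810 reads (median, 780466) on 3189–10739 genes (median, 9122), and the counts of no pair of cells were identical. The label of DA neuron was checked against marker lists: the summed level of 12 DA neuron markers had a median of 14651 CPM (a gene's reads per 1000000 counted reads), and the same sum for 7 astrocyte, 7 oligodendrocyte, 7 microglia, 6 endothelial, and 6 mural and meningeal markers had medians of 464, 18.4, 0, 0, and 0 CPM. Of these lists, 1 oligodendrocyte, 3 microglia, 2 endothelial, and 1 mural and meningeal marker had no read in any cell. Single cells went against the label. Oligodendrocyte markers reached 123196 CPM and astrocyte markers 17201 CPM in their highest cells, and 28 cells had under 1000 CPM of *Th*, the rate-limiting enzyme of dopamine synthesis.

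Aldehyde dehydrogenases oxidize aldehydes to carboxylic acids with NAD or NADP. *Aldh1a1*, *Aldh1a2*, and *Aldh1a3* encode the retinaldehyde dehydrogenases, which make retinoic acid, and *Aldh1a7* is a rodent paralog of *Aldh1a1*. In DA neurons, dopamine that is oxidized by monoamine oxidase becomes the reactive aldehyde DOPAL, which the cytosolic ALDH1A1 and the mitochondrial ALDH2 clear, and ALDH1A1 has long been used to mark the ventral tier of the substantia nigra pars compacta and part of the ventral tegmental area (VTA). The other enzymes act on other substrates: ALDH3A2 on long-chain fatty aldehydes, ALDH7A1 on the semialdehyde formed in lysine breakdown, and ALDH9A1 on aminoaldehydes of the carnitine and GABA routes.

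*Aldh1a1* (chr19:20492583-20643463) and *Aldh1a7* (chr19:20692953-20727556, GRCm38.p6) are neighbors, 49489 bases apart and on opposite strands. Their coding sequences are 1506 bases each and were the same at 1380 of them (91.6%), with 126 mismatches and no gap. Between *Aldh1a1* and the other 6 genes, identity was 46.7–67.1%. The first 120 coding bases of the pair are shown because reads from so similar a pair have to be told apart by the bases that differ, which are in capitals (10 mismatches, 5′ to 3′, GENCODE transcripts of GRCm38.p6):
Aldh1a1: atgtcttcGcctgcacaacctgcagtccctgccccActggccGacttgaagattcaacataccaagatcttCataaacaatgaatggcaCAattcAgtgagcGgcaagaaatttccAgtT
Aldh1a7: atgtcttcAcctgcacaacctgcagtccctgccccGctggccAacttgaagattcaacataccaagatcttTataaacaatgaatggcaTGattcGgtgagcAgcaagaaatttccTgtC
Of all runs of 50 bases in the *Aldh1a7* transcript, 151 of 2017 (7.49%) also occurred in that of *Aldh1a1*, and of all runs of 100 bases, 1 of 1967. Reads that aligned to more than 1 gene had been left out by the authors. How many reads of one paralog were counted on the other was not tested.

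The regions upstream of both genes are shown because both genes were read in the same cells, as described further on. They are the 250 bases before a transcription start in RefSeq on GRCm38.p6, chr19:20601718-20601967 on the plus strand for *Aldh1a1*, which has a second start upstream, and chr19:20727557-20727806 on the minus strand for *Aldh1a7*. Capitals mark 65 bases that are identical in both and begin 94 bases before both starts:
Aldh1a1: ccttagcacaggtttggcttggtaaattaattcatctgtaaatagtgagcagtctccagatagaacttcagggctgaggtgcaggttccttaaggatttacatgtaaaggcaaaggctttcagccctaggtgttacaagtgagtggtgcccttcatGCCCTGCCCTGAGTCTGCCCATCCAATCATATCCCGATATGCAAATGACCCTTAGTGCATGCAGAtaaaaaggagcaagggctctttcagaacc
Aldh1a7: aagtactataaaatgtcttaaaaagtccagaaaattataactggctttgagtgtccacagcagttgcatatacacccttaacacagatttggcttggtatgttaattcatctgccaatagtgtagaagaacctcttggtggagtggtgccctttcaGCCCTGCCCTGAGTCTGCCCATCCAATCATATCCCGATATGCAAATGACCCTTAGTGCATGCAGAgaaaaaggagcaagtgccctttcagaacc
Over the whole window the pair matched at 173 of 265 aligned positions (65.3%). The block of 65 bases occurred in 2 of 32851 promoters of the same length, those of *Aldh1a1* and *Aldh1a7*. Searched on both strands, it held CCAAT, found in 33.8% of all promoters, and ATGCAAAT, found in 1.60%, at 72 and 56 bases before each start, and both motifs were chosen after the block had been seen. The *Aldh1a7* window held another CCAAT at 137 bases. TAATCC (in 6.25% of promoters), AACAAT (9.42%), and AAAGGTCA (1.34%), letters taken for an Otx-type, a Sox-type, and a nuclear receptor site, occurred in neither window. These matches are descriptions of sequence and none is known here to be a bound site.

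Of the 8 genes, *Aldh1a1* took 91.5% of the reads and *Aldh1a7* 4.40%. Per mouse, with the reads of its cells summed, *Aldh1a1* was at 1042, 3428, 2822, 2191, 4122, 2267, 2993, and 2596 CPM in mice 1–8, a mean of 2683 ± 915 CPM (SD, n = 8 mice). It was highest in mouse 5 and lowest in mouse 1, the mouse in which 3 of 18 cells had 300 or more *Aldh1a1* reads. In such sums, fewer cells of a type and less RNA per cell cannot be told apart. *Aldh1a7* was at 1.57, 115, 276, 168, 191, 188, 22.7, and 36.4 CPM in the same mice (125 ± 97.5). The order of the mice was not that of *Aldh1a1*: mouse 7 was the third highest for *Aldh1a1* and the second lowest for *Aldh1a7*.

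The enzymes of other aldehydes were lower. *Aldh9a1* (chr1:167349963-167368530) was at 46.7 ± 24.1 CPM (16.7–85.5), *Aldh3a2* (chr11:61223417-61267528) at 48.6 ± 16.0 CPM (34.7–76.0), and *Aldh7a1* (chr18:56524722-56572991) at 29.5 ± 10.4 CPM (15.4–49.9) over the 8 mice. *Aldh2* (chr5:121566027-121593824), the mitochondrial enzyme with a role in clearing DOPAL, was at 15.7 ± 17.7 CPM. Mouse 1 stood at 59.2 CPM of *Aldh2* and the other mice at 5.68–12.7 CPM. A single cell of mouse 1 held 20.1% of all *Aldh2* reads (447 reads, 802 CPM), and that cell had the highest sum of astrocyte markers, 17201 CPM, with 355 CPM of *Th*.

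The other retinaldehyde dehydrogenases were almost absent from these cells. *Aldh1a2* (chr9:71215789-71296243) had reads in 3 cells, all of mouse 2, and none in the 7 other mice. Its highest cell (598 reads, 794 CPM) had 6.64 CPM of *Th* and a mural and meningeal marker sum of 1803 CPM, the highest of any cell. The next (196 reads) had 11310 CPM of *Th* and none of those markers. *Aldh1a3* (chr7:66390892-66427477) had reads in 2 cells, 41 reads in a cell of mouse 8 and 31 reads in a cell of mouse 3. A gene counted at 0 in a mouse could have been present at up to 0.0914–0.353 CPM, the levels that 3 reads would give, and such limits, like the intervals given for shares, cover counting error only, since amplified reads without molecular identifiers are not independent molecules.

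Genes were ranked per length, as CPM per kilobase of exon (RPKM). The order of the levels was *Aldh1a1* (543 ± 185 RPKM), *Aldh1a7* (60.4 ± 47.2), *Aldh9a1* (13.8 ± 7.13), *Aldh3a2* (8.64 ± 2.85), *Aldh7a1* (5.70 ± 2.01), *Aldh2* (3.07 ± 3.45), *Aldh1a2* (1.5 ± 4.26), and *Aldh1a3* (0.0834 ± 0.169; SD, n = 8 mice). *Aldh1a1* lay above *Aldh1a7* in 8 of 8 mice with no overlap of the ranges. Every later pair of neighbors in the order overlapped, with the higher gene ahead in 6 of 8 (*Aldh1a7* over *Aldh9a1*, and *Aldh9a1* over *Aldh3a2*), 7 of 8 (*Aldh3a2* over *Aldh7a1*, *Aldh7a1* over *Aldh2*, and *Aldh2* over *Aldh1a2*), and 1 of 8 mice (*Aldh1a2* over *Aldh1a3*).

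**Figure D1:**
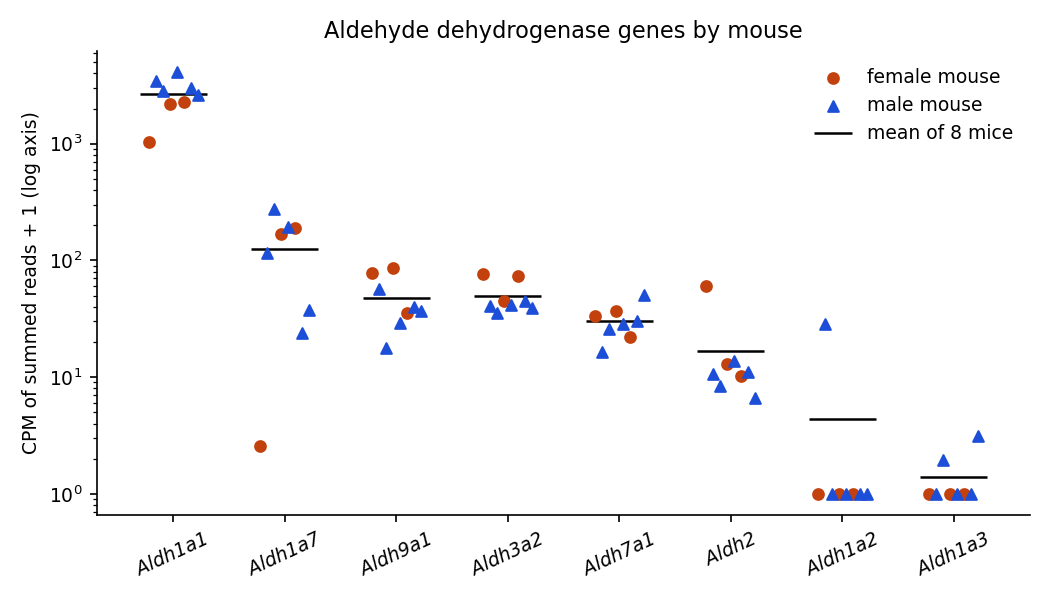
Level of each of the 8 aldehyde dehydrogenase genes in each mouse, as CPM + 1 of the summed reads on a log axis (orange circles, female mice; blue triangles, male mice; black lines, means of the 8 mice). *Aldh1a1* lies at 1042–4122 CPM, above every value of the other genes, and *Aldh1a7* spreads from 1.57 to 276 CPM.

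From cell to cell, *Aldh1a1* ran from 0 to 14515 reads. It had at least 1 read in 206 of 209 cells, at least 10 reads in 165 (78.9%; exact 95% CI, 72.8–84.3%), and at least 300 reads in 107, with a median of 512 CPM and a highest cell at 15542 CPM. By reads, 3 cells had none, 41 others had fewer than 10, 22 had 10 or more but fewer than 30, 24 fewer than 100, 12 fewer than 300, 12 fewer than 1000, 21 fewer than 3000, and 74 had 3000 or more. The cells thus lay in a low and a high group, with few between 100 and 1000 reads. *Aldh1a7* had at least 1 read in 119 cells, at least 10 in 74 (35.4%; 28.9–42.3%), and at least 300 in 28.

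A low count of *Aldh1a1* was close to universal, also where the gene need not be expressed. In the 28 cells with under 1000 CPM of *Th* (all 8 mice), the median of *Aldh1a1* was 12.1 CPM, 14 had at least 10 *Aldh1a1* reads, 1 had at least 300 reads, and 0 of 28 had 10 *Aldh1a7* reads, which allows a share of up to 10.7% (3 cells of 28). In the other 181 cells the *Aldh1a1* median was 1755 CPM, and 106 cells (58.6%) had at least 300 reads. The median depth was 705153 reads in the former and 783961 in the latter. How far free RNA adds to such low counts was not tested. Shares are therefore given from both 10 and 300 reads, and the limit of 300, which lies in the sparse range, was chosen after the counts had been seen.

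*Aldh3a2*, *Aldh9a1*, and *Aldh7a1* had at least 10 reads in 92 (44.0%), 89 (42.6%), and 77 (36.8%) cells and at least 300 reads in 3, 2, and 0 cells. *Aldh2* had at least 10 reads in 34 cells (16.3%; 11.5–22.0%). Their Spearman correlations with *Aldh1a1* over the cells of a mouse, averaged over mice, were near 0: 0.0016 for *Aldh3a2*, -0.027 for *Aldh9a1*, 0.037 for *Aldh7a1*, and 0.013 for *Aldh2*. All correlations in these cells are descriptions, as the cells of a mouse share a run and differ in depth.

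*Aldh1a7* was read in cells that also had *Aldh1a1*. With 10 reads as the limit, 73 cells had both genes, 92 had *Aldh1a1* alone, 1 had *Aldh1a7* alone, and 43 had neither. Of the 165 *Aldh1a1*-positive cells, 44.2% (exact 95% CI, 36.5–52.2%) were *Aldh1a7*-positive, against 2.27% (0.0575–12.0%) of the 44 *Aldh1a1*-negative cells. In the other direction, 98.6% of the 74 *Aldh1a7*-positive cells were *Aldh1a1*-positive (92.7–99.97%). The 1 exception, in mouse 5, had 68 *Aldh1a7* reads and 4 *Aldh1a1* reads of 1110575.

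The share of *Aldh1a7*-positive cells among *Aldh1a1*-positive cells differed widely between mice. It was 0 of 12, 11 of 31, 28 of 41, 4 of 4, 15 of 28, 4 of 9, 5 of 24, and 6 of 16 cells in mice 1–8. Among *Aldh1a1*-negative cells it was 0 in every mouse except mouse 5 (1 of 10), and mouse 7 had no such cell. Over the 7 mice with at least 3 cells in each class, the difference in share was 47.0 ± 30.9 percentage points (SD). It was higher in *Aldh1a1*-positive cells in 6 of 7 mice (two-sided exact permutation test that flips the sign of each mouse's difference, p = 0.03125). The difference of mouse 1 was 0, which a flip cannot change, so 0.03125 was the smallest p these 7 mice allow. The p was 0.0625 without mouse 2, 3, 4, 5, 6, or 8 (38.2–49.0 points). It was also 0.0625 when only cells with at least 1000 CPM of *Th* were used (50.6 points, 6 mice). With 6 mice that include mouse 1, 0.0625 is the smallest p possible, so these values do not show a weaker difference. With 300 reads as the limit for *Aldh1a1*, 64 of 107 cells above it and 10 of 102 below it were *Aldh1a7*-positive (46.8 points, 8 mice, exact p = 0.015625).

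**Figure D2:**
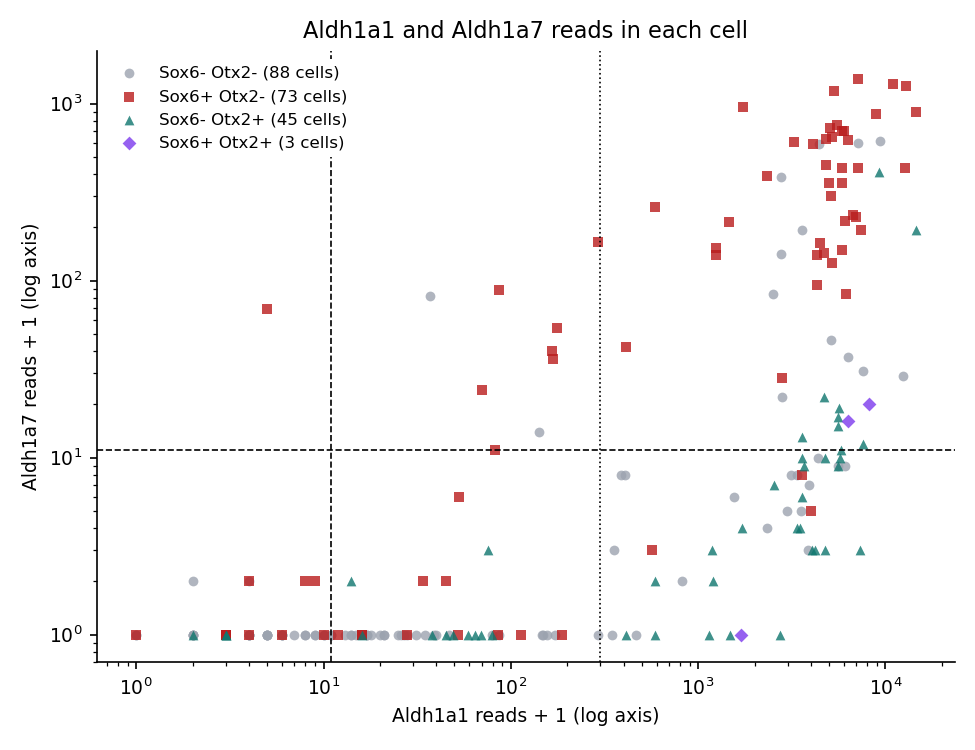
Reads + 1 of *Aldh1a1* (horizontal, log axis) and of *Aldh1a7* (vertical, log axis) in each of the 209 cells, colored by *Sox6* and *Otx2* class, with dashed lines at 10 reads and a dotted line at 300 *Aldh1a1* reads. The 74 *Aldh1a7*-positive cells lie to the right of 10 *Aldh1a1* reads except 1, and of the 107 cells to the right of 300 *Aldh1a1* reads, 64 are *Aldh1a7*-positive.

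Next, the ratio of the paralogs was taken in the 107 cells with at least 300 *Aldh1a1* reads. *Aldh1a7* reads were 0–55.3% of *Aldh1a1* reads, with a median of 0.752%, and 8 of the 107 cells had no *Aldh1a7* read. The ratio divided by the transcription factors *Sox6*, which marks nigral DA neurons, and *Otx2*, which marks a ventral part of the VTA. In the 44 cells with *Sox6* and without *Otx2* (limits of 10 reads), the median was 8.39% and 41 (93.2%) were *Aldh1a7*-positive. In the 31 cells with *Otx2* and without *Sox6* the median was 0.157% and 29.0% were positive, and in the 29 cells with neither the median was 0.322% and 41.4% were positive. Per mouse, with reads summed, the ratio was 5.83–12.2% in *Sox6*-positive *Otx2*-negative cells (7 mice) and 0–1.32% in *Otx2*-positive *Sox6*-negative cells (7 mice), higher in the former in 6 of 6 mice that had both. This is a description, since the cells and limits were chosen with the counts known, and some mice had 1 cell in a class.

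**Figure D3:**
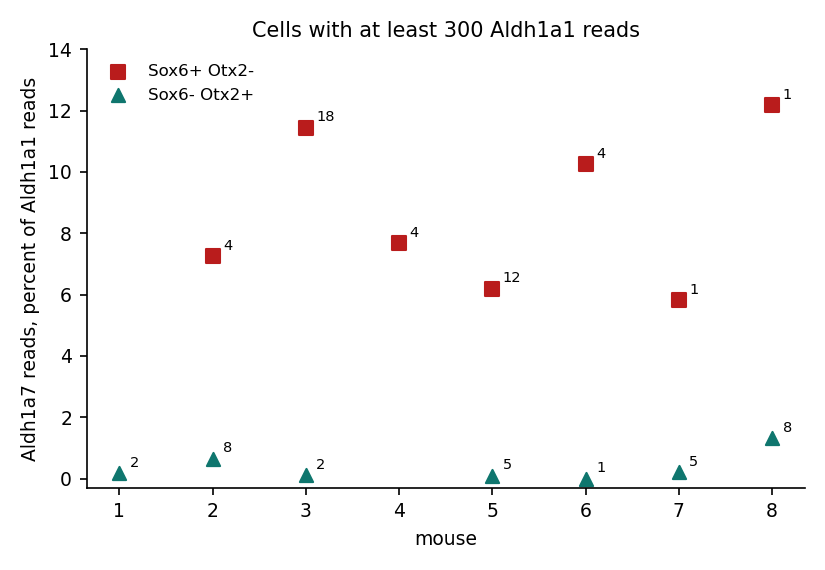
*Aldh1a7* reads as a percent of *Aldh1a1* reads, summed per mouse over cells with at least 300 *Aldh1a1* reads. Points are mice, for cells with *Sox6* only and with *Otx2* only, and the number beside a point is its number of cells. The *Sox6* points lie at 5.83–12.2% and the *Otx2* points at 0–1.32%, with no overlap.

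The cells fell into 73 with *Sox6* only, 45 with *Otx2* only, 88 with neither, and 3 with both. *Aldh1a1* was high in the first and the second: 44 of 73 (60.3%) and 31 of 45 (68.9%) cells had at least 300 reads, against 29 of 88 (33.0%) with neither. Its level was 3287 ± 2247 CPM in *Sox6*-only cells (8 mice), 3548 ± 907 CPM in *Otx2*-only cells (6 mice), and 1429 ± 992 CPM in cells with neither (8 mice; SD over mice with at least 3 cells). *Aldh1a7* was at 274 ± 203, 18.1 ± 23.9, and 33.2 ± 46.6 CPM in the same classes, with 67.1%, 20.0%, and 15.9% of cells positive. The 3 cells with both factors had at least 300 *Aldh1a1* reads each and at most 19.5 CPM of *Aldh1a7*.

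**Figure D4:**
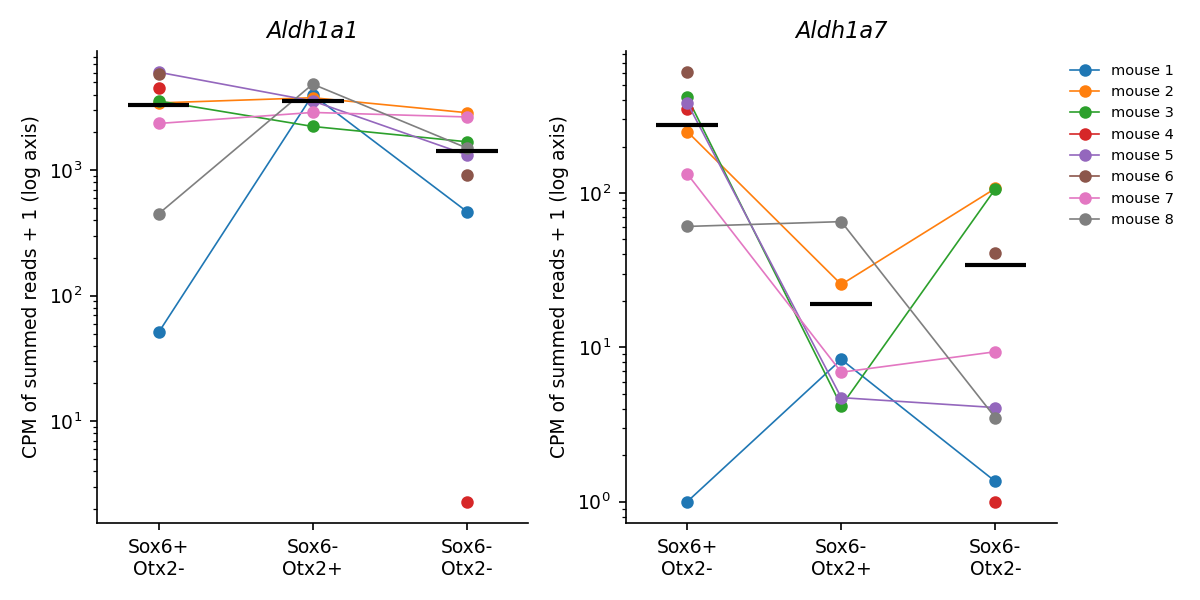
Level of *Aldh1a1* and of *Aldh1a7* (CPM + 1 of summed reads, log axis) in cells with *Sox6* only, *Otx2* only, or neither (lines, mice with at least 3 cells in a class; black bars, means of mice). *Aldh1a1* is at 3287 and 3548 CPM on average in the *Sox6* and *Otx2* classes, whereas *Aldh1a7* is at 274 and 18.1 CPM.

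To test these differences over mice, reads were summed per mouse and class and all genes were tested with edgeR. For *Sox6* (76 positive and 133 negative cells, 8 mice), none of the 6 members that passed the filter on low counts was called at a Benjamini-Hochberg adjusted p under 0.05, and 0.00797% of all genes tested were (*Sox6* itself). One member had an unadjusted p under 0.05, as had 6.56% of all genes, and DESeq2 called no member and 1.39% of the genes it gave an adjusted p. *Aldh1a7* was at 0, 227, 417, 348, 383, 605, 80.7, and 59.7 CPM in *Sox6*-positive cells of mice 1–8 and at 1.85, 71.9, 82.0, 0, 3.34, 36.6, 7.20, and 31.3 CPM in *Sox6*-negative cells. It was higher in 7 of 8 mice, mouse 1 being the exception, and the groups overlapped (265 ± 209 against 29.3 ± 32.6 CPM; log2 fold change 3.30, SE 1.04; edgeR, adjusted p = 0.59, and DESeq2, adjusted p = 0.074; 0.074–0.91 over all alternatives). With 50 reads as the limit (5 mice) the log2 fold change was 1.90, and from 1 read it was 4.12. *Aldh1a1* was higher in 6 of 8 mice (3531 ± 2225 against 1915 ± 1136 CPM; log2 fold change 1.03, SE 0.81; edgeR, adjusted p = 0.91). *Aldh2*, *Aldh3a2*, *Aldh7a1*, and *Aldh9a1* had log2 fold changes of 1.91, -0.19, 0.89, and 0.19 (higher in 4, 2, 5, and 4 of 8 mice; edgeR, adjusted p of 0.80–0.98). For *Aldh2*, mouse 1 stood at 267 CPM in *Sox6*-positive cells, and the medians over mice were 9.30 against 11.3 CPM. In mouse 4 *Aldh1a1* was at 4524 against 1.82 CPM and in mouse 8 at 448 against 3065 CPM, so the direction was not that of every mouse. The 3 oligodendrocyte markers tested had a median log2 fold change of -3.94 in this comparison (2 with an unadjusted p under 0.05), and their part in the result was not tested.

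For *Otx2* (45 positive and 135 negative cells, 6 mice), again 0 of 6 members were called by edgeR (0.0475% of all genes tested were, and none with the mouse as a block), 1 had an unadjusted p under 0.05 (5.71% of all genes had), and DESeq2 called none (1.75% of its genes). *Aldh1a7* was at 7.35, 24.1, 3.17, 3.72, 6.95, and 64.2 CPM in *Otx2*-positive cells of mice 1, 2, 3, 5, 7, and 8, and at 0.287, 159, 305, 241, 36.3, and 19.1 CPM in *Otx2*-negative cells. It was lower in 4 of 6 mice and higher in mice 1 and 8 (log2 fold change -2.77, SE 1.09; edgeR, adjusted p = 0.75). The log2 fold change was -4.0 without mouse 8, -2.02 without mouse 3, and -1.78 with 50 reads as the limit (4 mice), and over all alternatives the adjusted p was 0.19–1.00. The 3 oligodendrocyte markers tested had a median log2 fold change of -3.02, DESeq2 called *Mbp*, *Mag*, and *Cldn11* lower in *Otx2*-positive cells, and their part in the result was not tested. *Aldh1a1* was higher in 4 of 6 mice (3703 ± 874 against 2402 ± 1394 CPM; log2 fold change 0.67, SE 0.40; edgeR, adjusted p = 0.93). *Aldh2*, *Aldh3a2*, *Aldh7a1*, and *Aldh9a1* had log2 fold changes of -0.05, -0.0091, -0.13, and -0.21, each with an adjusted p of 1.00 by edgeR. The *Otx2* and *Sox6* comparisons use the same cells and are not independent.

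*Aldh1a1* and *Aldh1a7* were read more often in cells with more *Slc6a3*. *Slc6a3* encodes the transporter that takes dopamine back up, and the cells of each mouse were divided by its level into 4 sets of like size. From the lowest to the highest set, 18.0%, 54.7%, 52.0%, and 76.8% of cells had at least 300 *Aldh1a1* reads, and 8.00%, 22.6%, 40.0%, and 67.9% were *Aldh1a7*-positive. *Aldh3a2* (44.0%, 45.3%, 34.0%, and 51.8%) and *Aldh9a1* (48.0%, 28.3%, 44.0%, and 50.0%) had no such order. The median depth also differed, from 736390 reads in the lowest set to 826600 in the highest. The mean within-mouse Spearman correlation with *Slc6a3* was 0.47 for *Aldh1a1* (-0.09 to 0.81, positive in 7 of 8 mice) and 0.54 for *Aldh1a7* (0.26–0.82, 8 of 8 mice), with cells weighted equally in a mouse.

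**Figure D5:**
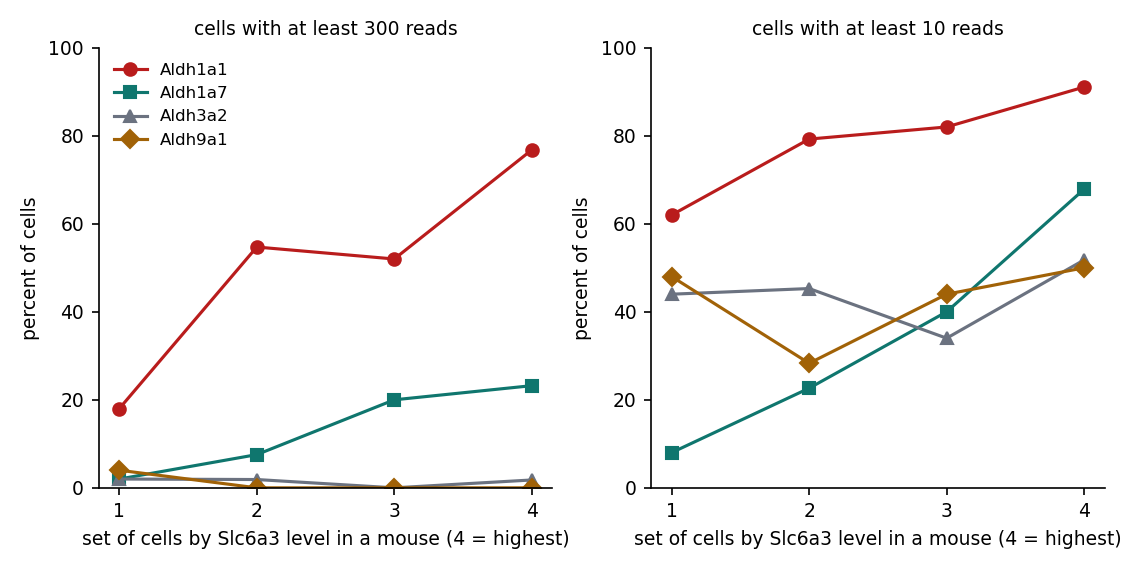
Percent of cells with at least 300 reads (left) and at least 10 reads (right) of *Aldh1a1*, *Aldh1a7*, *Aldh3a2*, and *Aldh9a1*. Cells are in 4 sets of rising *Slc6a3* level within a mouse, from 1 (lowest) to 4 (highest). The *Aldh1a1* share runs from 18.0% to 76.8% on the left, and the *Aldh1a7* share from 8.00% to 67.9% on the right.

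Cells above and below the median *Slc6a3* level of their mouse were then compared (103 and 106 cells, 8 mice). *Aldh1a1* was at 1390, 4622, 3848, 4783, 5803, 4005, 4292, and 3866 CPM above it and at 659, 2073, 1879, 1.74, 2077, 416, 1686, and 1358 CPM below it. It was higher in 8 of 8 mice, although mouse 1 above the median lay within the range of the cells below (4076 ± 1262 against 1269 ± 807 CPM; log2 fold change 1.76, SE 0.64; edgeR, adjusted p = 0.42). *Aldh1a7* was likewise higher in 8 of 8 mice (194 ± 145 against 54.6 ± 84.8 CPM; log2 fold change 1.85, SE 1.06; edgeR, adjusted p = 0.63). With the mouse as a block the *Aldh1a7* log2 fold change was 3.12 (SE 0.89; edgeR, adjusted p = 0.20), and without mouse 3 it was 2.62 (edgeR, adjusted p = 0.48; 0.20–0.84 over all alternatives). *Aldh2*, *Aldh3a2*, *Aldh7a1*, and *Aldh9a1* had log2 fold changes of -0.43, -0.22, -0.20, and -0.33 (edgeR, adjusted p of 0.88–0.93). By edgeR 0 of 6 members were called against 0.00803% of all genes tested (*Cd36*, a fatty acid transporter, lower in high cells), 1 had an unadjusted p under 0.05 (8.88% of all genes had), and DESeq2 called none (1.62% of its genes). *Slc6a3*, which set the classes, was itself not called by edgeR (log2 fold change 1.98, adjusted p = 0.10), and neither was *Th* (1.05, adjusted p = 0.29). This fit thus missed a difference built into the classes, and the lack of a called member says little. With the mouse as a block 7 genes in place of 1 were called, again with no member. Cells below the median had astrocyte and oligodendrocyte marker sums of up to 17201 and 123196 CPM, against 2142 and 379 CPM above it, and in cells with at least 1000 CPM of *Th* alone the *Aldh1a1* log2 fold change was 1.61 (edgeR, adjusted p = 0.76; 0.13–0.76 over all alternatives). Between the highest and the lowest of 4 *Slc6a3* sets of each mouse, it was 3.60 (edgeR, adjusted p = 0.13).

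Cells were also divided by *Aldh1a1* itself (141 positive and 44 negative cells, 7 mice). *Aldh1a7* was at 2.26, 126, 301, 550, 248, 310, and 48.6 CPM in positive cells of mice 1, 2, 3, 4, 5, 6, and 8, and at 0.230, 0, 0.713, 0, 9.19, 0, and 0 CPM in negative cells, which held 1, 0, 2, 0, 70, 0, and 0 reads. Positive cells were higher in 7 of 7 mice, with mouse 5 setting the overlap (log2 fold change 7.21, SE 1.28; edgeR, adjusted p = 0.060, DESeq2, adjusted p = 1.03e-05). Thus edgeR called 0 of 5 members tested against 0.0425% of all genes tested, 1 member had an unadjusted p under 0.05 against 4.52% of all genes, and DESeq2 called 1 member against 0.891% of its genes. Without mouse 5, whose 70 reads are nearly all from the *Aldh1a7*-only cell, the log2 fold change was 10.75 (edgeR, adjusted p = 0.0043). It was 6.57 without mouse 4 (edgeR, adjusted p = 0.17) and 8.73 with the mouse as a block (edgeR, adjusted p = 0.057). With 300 *Aldh1a1* reads as the limit it was 5.5 (edgeR, adjusted p = 0.095). In cells with at least 1000 CPM of *Th* (6 mice) it was 6.79 (edgeR, adjusted p = 0.11). Without mouse 1 edgeR's adjusted p was 0.027, and with cells from 100000 reads it was 0.040. Without mouse 2, 3, 6, or 8 it was 0.28, 0.33, 0.27, and 0.15. Of 14 alternatives, 4 gave an adjusted p under 0.05 and 10 did not (1.03e-05 to 0.33). *Aldh2*, *Aldh3a2*, *Aldh7a1*, and *Aldh9a1* had log2 fold changes of 0.62, 0.15, -0.57, and -0.02, each with an adjusted p of 1.00 by edgeR.

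Besides *Aldh1a1*, 4 genes were called in this split, all higher in positive cells of 7 of 7 mice with no overlap. *Anxa1*, which encodes a calcium-dependent phospholipid-binding protein and was among the nigral and VTA markers listed, was at 1214 ± 1251 against 0.312 ± 0.412 CPM (log2 fold change 12.00, SE 1.00; edgeR, adjusted p = 7.39e-06). *Rasd1*, a Ras-related GTPase induced by dexamethasone, *Igfbp2*, an insulin-like growth factor binding protein, and *Srpx2*, a secreted sushi-repeat protein, had log2 fold changes of 8.66, 7.23, and 7.22 (edgeR, adjusted p = 0.0036, 0.0085, and 0.0085). With the mouse as a block 2 genes in place of 5 were called in all. Oligodendrocyte markers averaged 2853 CPM in negative and 266 CPM in positive cells, with medians of 13.4 and 18.7 CPM and highest cells at 123196 and 31778 CPM, and their part in the result was not tested. By cell, 107 of all 209 cells had at least 300 *Aldh1a1* reads. The share was higher in cells positive than in cells negative for *Anxa1* (97.3% and 25.4%), the transcription factor *Neurod6* (91.8% and 38.8%), *Grp* (gastrin-releasing peptide; 81.8% and 33.3%), *Ndnf* (66.2% and 44.0%), *Cck* (58.7% and 39.8%), and *Vcan* (57.9% and 49.7%). It was lower in cells positive for *Slc17a6* (48.7% and 54.2%), *Calb1* (48.1% and 60.4%), *Vip* (33.3% and 51.7%), *Lypd1* (25.0% and 54.6%), and the GABA-synthesizing enzyme *Gad1* (20.0% and 53.6%). These shares over cells are a description, with no test.

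Finally, *Aldh1a7*-positive and -negative cells were compared among *Aldh1a1*-positive cells (69 and 80 cells, 6 mice). *Aldh1a1* was at 7808, 4191, 8096, 5670, 7636, and 4464 CPM in the former, and at 1373, 928, 1639, 2260, 1752, and 2808 CPM in the latter, for mice 2, 3, 5, 6, 7, and 8. All positive values lay above all negative ones. *Aldh1a1* was the 1 member of 5 that was called (6311 ± 1761 against 1793 ± 663 CPM; log2 fold change 1.91, SE 0.25; edgeR, adjusted p = 0.0075), where 0.0558% of all genes tested were called, 7.63% had an unadjusted p under 0.05, and DESeq2 called 1.46% of its genes. The call was lost without mouse 2, 5, or 7 (log2 fold change 1.80, 1.82, and 1.85; edgeR, adjusted p = 0.060, 0.10, and 0.068), and with a limit of 300 *Aldh1a1* reads the log2 fold change was 1.02 (edgeR, adjusted p = 0.44). It was also lost in cells with at least 1000 CPM of *Th* (log2 fold change 1.70; edgeR, adjusted p = 0.061) and with 50 reads as the limit (5 mice; log2 fold change 1.5; edgeR, adjusted p = 0.16), whereas with cells positive from 1 read it held (7 mice; log2 fold change 4.25; edgeR, adjusted p = 0.00039). The range over all alternatives was 6.69e-09 to 0.44. The other members tested, *Aldh2*, *Aldh3a2*, *Aldh7a1*, and *Aldh9a1*, had log2 fold changes of -1.79, 0.86, 0.44, and -0.60 (higher in 1, 5, 4, and 1 of 6 mice; edgeR, adjusted p of 0.66–0.88). Oligodendrocyte marker sums reached 234 CPM in the 73 *Aldh1a7*-positive and 31778 CPM in the 92 *Aldh1a7*-negative cells of all mice, and their part in the result was not tested.

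In the same comparison *Sox6* was higher in *Aldh1a7*-positive cells in 6 of 6 mice, at 59.8, 52.6, 106, 79.0, 20.1, and 20.5 CPM against 21.2, 14.8, 27.8, 13.8, 16.6, and 8.22 CPM. The ranges overlapped and the call depended on the tool (log2 fold change 1.83, SE 0.45; edgeR, adjusted p = 0.25, DESeq2, adjusted p = 0.0056; 0.0056–0.96 over all alternatives). The *Sox6* log2 fold change was 0.54 with cells positive from 1 read and 3.03 with 300 *Aldh1a1* reads. *Slc6a3* was also higher in 6 of 6 mice (4662 ± 1035 against 2593 ± 902 CPM; log2 fold change 0.95, SE 0.25; edgeR, adjusted p = 0.35), whereas *Otx2* was at 29.3 ± 37.4 against 40.9 ± 22.4 CPM (log2 fold change -0.39, and -1.94 with the mouse as a block, never called). The *Otx2* log2 fold change was -1.19 without mouse 8, -2.30 with 50 reads as the limit (5 mice), and 0.33 from 1 read. Of the 5 other genes called, *Cntn4*, a cell adhesion molecule, was higher (log2 fold change 1.86) and *Tmeff2*, *Ndst3*, and *Fras1* were lower in *Aldh1a7*-positive cells (-2.56, -4.45, and -7.29). *Grm8*, a metabotropic glutamate receptor, had 0 reads in positive and 1290 reads in negative cells.

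Described by cell, the 64 cells rich in *Aldh1a1* with *Aldh1a7* and the 43 without it differed in several markers. *Sox6* was positive in 67.2% and 9.30%, *Otx2* in 17.2% and 53.5%, *Calb1* (the calcium buffer calbindin) in 51.6% and 97.7%, *Slc17a6* (the vesicular glutamate transporter) in 37.5% and 72.1%, and *Anxa1* in 76.6% and 55.8%. Median *Slc6a3* was 4518 and 2232 CPM, and median *Th* was 7351 and 7004 CPM. The median depths were 795039 and 808664 reads. In the 102 cells with under 300 *Aldh1a1* reads, *Sox6* was positive in 28.4%, *Otx2* in 13.7%, *Calb1* in 79.4%, and *Anxa1* in 1.96%, with a median *Slc6a3* of 1218 CPM.

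Among 10558 genes (10 reads or more in 20 cells or more), those whose pattern over cells was most like that of *Aldh1a1*, by mean within-mouse Spearman correlation over 8 mice, were *Aldh1a7* (0.77, 0.46–0.88), *Anxa1* (0.69), the cadherin *Cdh8* (0.59), *Srpx2* (0.57), and *Igfbp2* (0.56). Those most opposed were *Spock3* (-0.59), *Gas7* (-0.52), *Tmeff2* (-0.51), *Fam196a* (-0.49), and *Pcdh7* (-0.48). For *Aldh1a7* they were *Aldh1a1*, *Anxa1* (0.73), the protease inhibitor *Serpine2* (0.61), the nicotinic receptor subunit *Chrna3* (0.59), and *Srpx2* (0.58), and at the other end the same 5 genes as for *Aldh1a1* (-0.57 to -0.51). The correlation of *Aldh1a1* and *Aldh1a7* was positive in 8 of 8 mice. With *Sox6* and *Otx2*, *Aldh1a1* had means of 0.20 and 0.20, and *Aldh1a7* of 0.29 and -0.0041.

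Between the sexes (5 male and 3 female mice), *Aldh1a1* was at 2596–4122 CPM in males and at 1042–2267 CPM in females, with no overlap (3192 ± 602 against 1833 ± 686 CPM; log2 fold change 0.81, SE 0.28; edgeR, adjusted p = 0.52). Of 6 members tested, 3 had an unadjusted p under 0.05 (*Aldh1a1*, *Aldh2*, and *Aldh3a2*), against 8.12% of all genes. No member was called by DESeq2 (2.02% of its genes were) or by edgeR, and 0.0322% of all genes tested were called by edgeR (*Xist*, *Kdm5d*, *Eif2s3y*, *Uty*, and *Ddx3y*, all on the sex chromosomes and in the direction of the labels). *Aldh3a2* was lower in males (39.4 ± 3.39 against 63.8 ± 17.7 CPM; log2 fold change -0.67; edgeR, adjusted p = 0.53) and so was *Aldh2* (9.12 ± 2.71 against 26.8 ± 28.1 CPM, the female values including mouse 1; log2 fold change -1.51; edgeR, adjusted p = 0.57). *Aldh7a1* and *Aldh9a1* had log2 fold changes of 0.0061 and -0.88 (edgeR, adjusted p = 1.00 and 0.62). *Aldh1a7* was at 128 ± 107 against 119 ± 102 CPM. The females gave 47 cells and the males 162, median DA marker sums were 8320 and 15392 CPM, and in cells with at least 1000 CPM of *Th* the *Aldh1a1* log2 fold change was 0.29. Within the C1 machine that processed both sexes (5 mice), it was 0.81 (edgeR, adjusted p = 1.00; 0.20–1.00 over all alternatives). The males were 24–28 and the females 25, 33, and 36 days old, and each mouse was 1 run, which cannot be told apart from the mouse.

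The pathways around these enzymes were followed with lists of genes. Across the 6 comparisons, edgeR called 0 of 13 other *Aldh* genes (6–10 tested; 4 of 41 tests with an unadjusted p under 0.05), 0 of 12 genes of dopamine and its aldehyde (10 tested; 12 of 60), 0 of 27 genes of the retinoid pathway (9–17 tested; 13 of 66), and 0 of 14 genes of GABA and polyamine metabolism (8–12 tested; 10 of 65). Of 21 nigral and VTA markers (19–21 tested; 38 of 118), 1 was called in 1 comparison, *Anxa1* in the split by *Aldh1a1*. The shares with an unadjusted p under 0.05 were thus 9.76%, 20.0%, 19.7%, 15.4%, and 32.2% of these tests, beside 4.52–8.88% of all genes per comparison, and the comparisons share cells and mice. DESeq2, which called 0.891–2.02% of its genes per comparison, called more: *Th*, *Ddc*, and *Slc18a2*, which make and store dopamine, were higher in *Slc6a3*-high cells, *Aldh3b2* was lower in the same cells, and *Stra6*, a retinol transporter, was lower in *Sox6*-positive and *Cyp26b1*, a retinoic acid hydroxylase, in *Otx2*-positive cells, as was *Gad1*. Of the retinoid genes it also called *Rbp4* and *Rxrg* for *Slc6a3* (1 higher and 1 lower) and *Rxrg*, lower, for *Aldh1a7*. Of the nigral and VTA markers, DESeq2 called *Lmo3* and *Slc17a6* for *Sox6* (1 higher and 1 lower), *Sox6*, *Lpl*, *Cck*, and *Neurod6* for *Otx2* (3 higher and 1 lower), *Slc17a6* for *Slc6a3* (lower), *Anxa1*, *Lmo3*, and *Neurod6* for *Aldh1a1* (all higher), *Sox6*, *Lmo3*, *Calb1*, *Vip*, and *Cck* for *Aldh1a7* (2 higher and 3 lower), and *Ndnf* and *Lypd1* for sex (higher in males). Among markers of other cell types it called *Mbp* and *Gja1* lower in *Sox6*-positive cells, *Mbp*, *Cnp*, and *Gja1* lower in *Slc6a3*-high cells, *Slc1a2* higher and *Col1a2* lower in *Otx2*-positive cells, and *Slc1a2* and *Aldoc* between the sexes. No gene was called by edgeR in the lists of DA neuron, neuron, astrocyte, and oligodendrocyte markers (14 of 71, 7 of 30, 6 of 14, and 17 of 20 tests with an unadjusted p under 0.05), microglia markers had 1 gene tested at most, and no endothelial or mural marker passed the filter.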

How the data were processed

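Single-cell RNA-seq reads of 384 sorted cells were trimmed by the authors with Trimmomatic 0.3.2, aligned with TopHat2 2.1.1 to GRCm38 (patch 3 in the study's methods), and counted on RefSeq genes with featureCounts 1.5.0-p3, reads on more than 1 gene being left out. The counts were deposited as whole numbers of reads per gene and cell, without normalization and without molecular identifiers. The library preparation does not mark strand, so reads of overlapping genes on opposite strands cannot be told apart. Of 47082 table entries, 5721 had no counts, and spike-in and transgene entries held 0.00457% of reads. All columns were matched to a labelled cell.

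Cells with at least 500000 counted reads were used (209 cells). The study set that limit on aligned reads, a larger quantity, and applied further limits that were not used here, so the sets of cells differ. No doublet caller was run. Sex was taken from the sample labels (5 male, 3 female), which differ from the series description. The 8 genes, the lists of other genes, and the classes were chosen with earlier results of these data known.

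Cells were called positive from 10 reads of a gene. Where both classes of a mouse held 3 or more cells, their reads were summed by class, and the sums were compared in R 4.3.3 by edgeR 4.0.16 (TMM, filterByExpr, quasi-likelihood F test, Benjamini-Hochberg adjustment over all genes tested, threshold 0.05). The mouse is the replicate. SE is the log2 fold change divided by the square root of F. DESeq2 1.42.0, the mouse as a block, other limits, and leaving out each mouse were the alternatives. Steps were tested on simulated data. Co-detection was tested by an exact sign-flip permutation test over mice (scipy 1.17.1), and intervals are exact binomial at 95%, with 3 counts as the limit that a count of 0 allows. Named genes were the 8 genes, *Sox6*, *Otx2*, *Slc6a3*, and *Th*, up to 4 called genes of each list per comparison, the 5 genes most like and most unlike *Aldh1a1* and *Aldh1a7*, and up to 10 further called genes in the *Aldh1a1* split. Other called genes, and markers given by share of cells, were named after their values were seen. Both classes of a mouse come from the same animal, so they are paired: after the class means were removed, the 35 pairs correlated at -0.074 to 0.37. Exon lengths, coding sequences, and gene positions came from GENCODE and promoters from RefSeq, both on GRCm38.p6, a later patch of the authors' build. Some calls of single marker genes are not reported here.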

Additional observations from a re-analysis of the deposited data

Results flagged for a closer look

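In 16 sets of mice tested for a value that stands apart by Dixon's criterion, 4 values did. Chance marks about 1 in 20 such sets where values are normally distributed. That rate does not hold for *Aldh1a2* and *Aldh1a3*, which were at 0 in most mice. The sets also overlap, since the males are among the 8 mice. *Aldh1a2* was at 27.2 CPM in mouse 2 and at 0 in the other mice, over all 8 mice and again over the 5 males (27.2 CPM), and 598 of its 795 reads were in 1 cell. These 2 marks are the same value, and with all other mice at 0 any read in a single mouse would have given them. *Aldh1a3* was at 2.14 CPM in mouse 8, from 41 reads in 1 cell, at 0.944 CPM in mouse 3, and at 0 in the other mice. *Aldh2* was at 59.2 CPM in mouse 1, and the mean of the other 7 mice was 9.53 CPM.

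A signal also appeared in cells left out of every comparison. The 11 cells with under 20000 counted reads had a median of 2164 CPM of *Aldh1a1* (203–5594 CPM), with reads in 11 of 11 cells, and a median of 1019 CPM of *Th*. The series holds no control samples to set this against. The median of *Aldh1a1* was 1135 CPM in the 85 cells of 20000 to 100000 reads, 642 CPM in the 79 cells of 100000 to 500000 reads, and 512 CPM in the 209 cells used. That of *Aldh1a7* was 0 in the 3 shallower sets and 2.44 CPM in the cells used, a level of under 1 read in a cell of under 100000 reads. With reads pooled, *Aldh1a7* was at 16.4, 16.2, 128, and 142 CPM and *Aldh1a1* at 1838, 1720, 2222, and 2953 CPM, shallowest set first. The medians of *Th* were 429, 1590, and 6463 CPM in the last 3 of these sets. What these cells are was not tested.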

How the results depend on the processing

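No more than 8 mice gave replicates, 1 capture run stood for each mouse, and few reads limited *Aldh1a2* and *Aldh1a3*, which never passed the filter. The levels of the 8 genes moved by less than 1 SD over mice in all 10 alternatives. Of these, 8 left out 1 of the 8 mice, which cannot move a mean by 1 SD. *Aldh1a2* went from 3.41 to 0 CPM without mouse 2, and *Aldh2* from 15.7 to 9.53 CPM without mouse 1. Counts of called genes were unstable and rest on the tool. By DESeq2, 221, 284, 258, 140, 228, and 318 genes were called for *Sox6*, *Otx2*, *Slc6a3*, *Aldh1a1*, *Aldh1a7*, and sex, against 1, 6, 1, 5, 7, and 5 by edgeR. Without the filter on low counts, 2, 3, and 2 were called for *Sox6*, *Otx2*, and *Slc6a3*. With cells from 100000 reads, 3, 25, 0, and 19 were called for *Sox6*, *Otx2*, *Slc6a3*, and *Aldh1a7*, and 1 member (*Aldh1a7*) for *Aldh1a1*, as by DESeq2. With 50 reads as the limit, 0, 1, and 3 were called for *Sox6*, *Otx2*, and *Aldh1a7*, with 0 members in the last. With *Th*-rich cells, 0 were called for *Slc6a3* and 1 for *Aldh1a7*, with 0 members. With the highest against the lowest of the 4 *Slc6a3* sets, 6 were called. With 300 *Aldh1a1* reads, limits chosen after seeing the data, 13 were called for *Aldh1a1* and 1 for *Aldh1a7*, with 0 members. On the machine with mice of either sex, 0 were called for sex. The cause of these changes was not tested.

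With the mouse as a block, which pairs the classes of an animal, 0 genes were called for *Otx2*, 7 for *Slc6a3*, and 2 for *Aldh1a1*. The block changed no call of a member: *Aldh1a1* in the *Aldh1a7* split kept a log2 fold change of 1.96 (edgeR, adjusted p = 0.039).

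Leaving out each mouse gave 1–3, 1–11, 1–20, 2–10, 1–14, and 4–5 called genes in the order above, and 0–1 members for *Aldh1a1* and for *Aldh1a7*. The highest for *Slc6a3*, 20, came without mouse 3. The difference in co-detection was 38.2–54.9 points. From 1 read it was 44.4 points in the 1 mouse that allowed it, which is too few for a test, and in *Th*-rich cells 50.6 points (6 mice, exact permutation p = 0.0625). The *Aldh1a1* split from 1 read gave no value, since only 1 mouse had 3 cells in each class.

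Signs reversed for *Aldh1a7* between the sexes, never called: -0.39 in *Th*-rich cells, -0.80 on the 1 machine, and -0.45 to 0.62 when mice were left out (-0.45, -0.45, and -0.01 without mouse 1, 3, and 5), and for *Otx2* in the *Aldh1a7* split, 0.33 from 1 read. *Aldh2*, *Aldh3a2*, *Aldh7a1*, and *Aldh9a1* were called in no alternative, and their direction changed in 64 of 332 values.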
